A study of Caenorhabditis elegans with 16 samples.

Results

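The major sperm protein (*msp*) family and 3 further gene families enriched in sperm, *ssp*, *nspd* and *sss*, were examined across 4 *C. elegans* genotypes. Members were the protein-coding genes in the deposited count tables whose symbol begins with any of these 4 prefixes, apart from R74.10. Ensembl gives R74.10, *ssp-28* in RefSeq, another family name. There were 53 members among 23758 genes, of which 30 were *msp*, 12 *ssp*, 9 *nspd* and 2 *sss* genes. Libraries were made from RNA of whole animals on day 1 of adulthood at 20 °C, with 4 replicates of each genotype. The genotypes were wildtype (N2), *ubql-1(tm1574)* (here also the mutant), *hsf-1* OE, and a cross of these strains named *hsf-1* OE;*ubql-1(tm1574)*. Animals labelled *hsf-1* OE carry the transgene uthIs235, with *hsf-1* placed between a *sur-5* promoter and an *unc-54* 3′ UTR, together with a tdTomato marker under the pharyngeal *myo-2* promoter. Both strains named *hsf-1* OE carry this marker and the same insertion, so effects of the insertion, the marker and the *hsf-1* sequence cannot be told apart. All 16 libraries were from animals fed OP50 bacteria.

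MSP is the most abundant protein of nematode sperm. It assembles into filaments that drive the crawling of the amoeboid sperm, and released MSP acts as a signal for oocyte maturation and for contraction of the gonad sheath. In hermaphrodites, sperm are made during late larval life before the germline switches to oocytes, and transcripts of sperm proteins are produced in spermatocytes rather than in finished sperm. The *ssp* and *sss* genes are named as classes P and S of sperm-specific families, the former with an MSP domain, and the *nspd* genes as group D of the nematode-specific peptide families. The RNA came from whole animals, so fewer spermatogenic cells and less RNA per cell cannot be told apart.

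The members were short genes, with a median length of 447 bases (range 234 to 919) against 1117 bases for all protein-coding genes. The deposited annotation placed 29 of the 30 *msp* members and all 12 *ssp* members in the Motile_Sperm domain family, and none of the *nspd* or *sss* members. In the WBcel235 build, 13 *msp* members lay on chromosome II between positions 4785861 and 5810342. Another 17 lay on chromosome IV in 2 clusters, with 8 genes between 5055593 and 5316944 and 9 between 9688982 and 10143775. The other families were spread over chromosomes I, II, III, IV and V, although several of their genes were close to the *msp* clusters. Examples on chromosome IV are *sss-1*, at 9892739 to 9893749, and *ssp-10*, at 9850646 to 9851070. Many members of the *msp* family are near-identical copies of each other, and how reads that match several copies were counted is not given in the sources used here, so the values of single *msp* genes are uncertain. Another gene overlaps 5 members (*msp-31*, *msp-33*, *msp-45*, *nspd-10* and *ssp-35*), and whether counting used the strand is not given either.

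Library totals ranged from 18202151 to 30524762 counts. As a check of the labels, *ubql-1* had 4055 ± 106 normalised counts in wildtype (SD, n = 4) and 1788 ± 124 in *ubql-1(tm1574)*. A normalised count is a count divided by the effective library size (trimmed mean of M values, TMM) relative to the mean of the 16 libraries. The *hsf-1* gene had 2412 ± 136 normalised counts in wildtype against 1994 ± 368 in libraries carrying the *hsf-1* OE label (log2 fold change -0.13, adjusted p = 0.386 with edgeR's quasi-likelihood test), so the label was not visible in the *hsf-1* count of these libraries, and *hsf-1* OE here means the libraries labelled so. Each comparison of 2 genotypes was scaled over its own 8 libraries, so its fold changes can differ from ratios of the normalised counts. The cross had 2828 ± 362 normalised counts of *hsf-1* against 2288 ± 52 in *ubql-1(tm1574)* (log2 fold change 0.36, adjusted p = 0.00577 with edgeR). The libraries overlapped, since replicate 2 of the cross (2334) was below replicate 2 of *ubql-1(tm1574)* (2365). Members together made up 0.145% to 0.561% of a library.

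Expression of the members differed widely. Per kilobase of gene length, mean normalised counts over the 16 libraries ran from 3.05 for *msp-32* to 14427 for *msp-31*. The medians of this level were 5306 for *msp*, 2524 for *nspd*, 2341 for *sss* and 959 for *ssp* genes. The 17 highest members by this level were all *msp* genes. *msp-31*, *msp-40* and *msp-57* held 7.48%, 6.35% and 5.66% of the *msp* family's counts. As counted, no single gene set the family sum, although how reads were shared among near-identical *msp* copies is not known. By contrast, *ssp-10* alone held 27.7% of the *ssp* counts and *nspd-1* held 19.6% of the *nspd* counts. *msp-32* had between 0 and 5 raw counts per library and did not pass the filter on low counts, which left 52 of the 53 members in every test.

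Summed over the 30 *msp* members, normalised counts were 50120.0, 31865, 62611 and 72067 in wildtype replicates 1 to 4. They were 66051, 73970.0, 98860.2 and 85696 in the mutant, 108098, 81924, 88517 and 72102 in *hsf-1* OE, and 70825, 72628, 76047 and 72982 in the cross. Every *hsf-1* OE library was thus above every wildtype library, although *hsf-1* OE replicate 4 exceeded wildtype replicate 4 only narrowly, while the ranges of the other 2 genotypes overlapped that of *hsf-1* OE. The ratio of the *hsf-1* OE mean to the wildtype mean was 1.62 for the *msp* sum, 1.97 for *ssp*, 2.002 for *nspd* and 2.42 for *sss*. For *ubql-1(tm1574)* the same ratios were 1.498, 1.51, 1.36 and 1.81. Relative to *ubql-1(tm1574)*, the means of the cross were 0.901 for *msp*, 1.11 for *ssp*, 1.08 for *nspd* and 1.29 for *sss*.

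**Figure D1:**
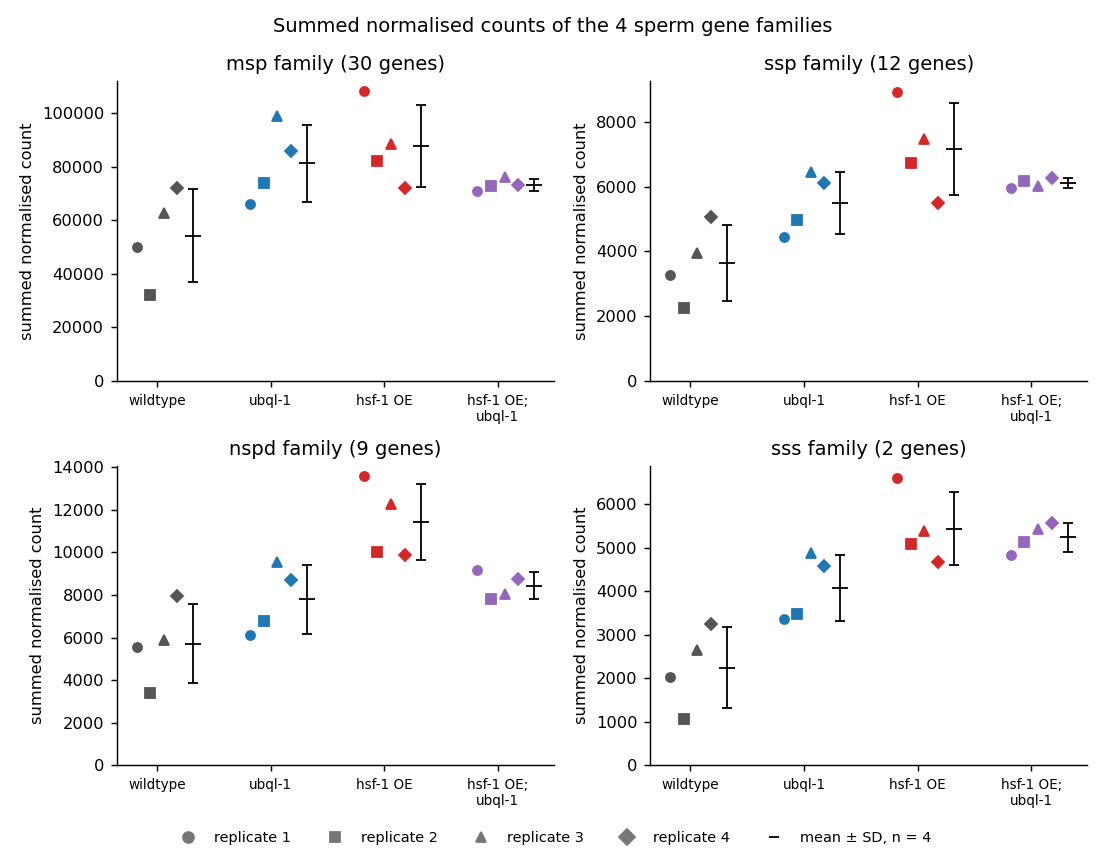
Summed normalised counts (y axis) of each family in every library, by genotype (x axis; ubql-1 stands for ubql-1(tm1574)). Marker shapes give the replicate number and the black bars the mean ± SD (n = 4). Wildtype libraries spread widely, with replicate 2 lowest in all 4 families, whereas the 4 hsf-1 OE;ubql-1(tm1574) msp sums lie between 70825 and 76047.

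Within a genotype the members rose and fell together from library to library. In wildtype replicate 2, 0 of 52 members with a mean of at least 10 normalised counts were above their wildtype mean, and the median deviation was -0.70 on the log2 scale. In wildtype replicate 4 all 52 were above it, with a median deviation of 0.50. The same measure ran from -0.29 to 0.30 among the *ubql-1(tm1574)* libraries, from -0.25 to 0.30 among the *hsf-1* OE libraries, and from -0.03 to 0.03 among the *hsf-1* OE;*ubql-1(tm1574)* libraries. Over the 1326 pairs of these 52 members, the median Pearson correlation of the deviations across the 16 libraries was 0.90. It is a description only, since all members share the depth and composition of each library. The median coefficient of variation of a member was 32.9% in wildtype, 18.6% in the mutant, 17.98% in *hsf-1* OE and 6.17% in the cross.

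**Figure D2:**
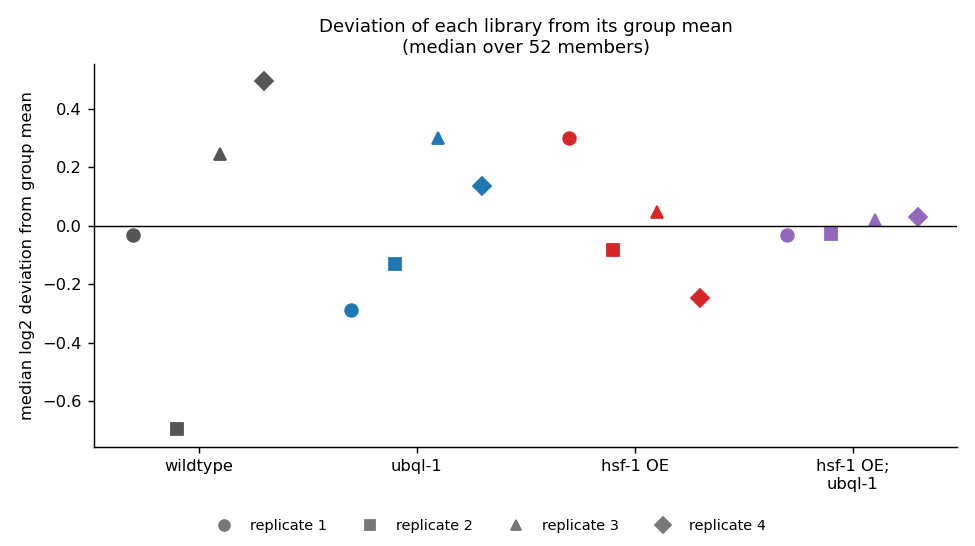
Median, over 52 members, of each library's log2 deviation from the mean of its own genotype (y axis), with libraries placed by genotype (x axis; ubql-1 stands for ubql-1(tm1574)) and marker shape giving the replicate number. Wildtype replicates 2 (-0.70) and 4 (0.50) lie farthest from 0, and the 4 hsf-1 OE;ubql-1(tm1574) libraries lie closest to it.

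In *hsf-1* OE against wildtype, all 52 tested members had a log2 fold change above 0, and 21 passed both thresholds (Benjamini-Hochberg adjusted p under 0.05 over all genes tested and a log2 fold change over 1). Over all 14794 genes tested, 22.6% passed in this direction. The member median was 0.91 (range 0.52 to 4.77) on the log2 scale, against 0.28 for all genes tested. By adjusted p alone 46 of 52 members passed, against 38.6% of all genes in the same direction. In 31 members the 4 *hsf-1* OE libraries were all above the 4 wildtype libraries, which was the case for 28.5% of all genes. No member fell. The other scalings moved these medians together. With relative log expression (RLE) factors the medians were 0.76 for members and 0.11 for all genes, and scaled to *cdc-42*, *pmp-3* and *rpb-2* as 3 housekeeping genes they were 1.26 and 0.64. The distance between the medians was 0.62 with TMM, 0.64 with RLE and 0.62 with the housekeeping genes. The number of members past both thresholds was 15 with RLE, where 19.4% of all genes passed as higher, and 46 with the housekeeping genes, where 33.7% did. It was 12 without wildtype replicate 2 (21.4% of all genes) and 11 without *hsf-1* OE replicate 1 (21.5% of all genes).

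Counts by family were uneven. Both thresholds were passed by 6 of 29 tested *msp* members (median 0.81), 8 of 12 *ssp* members (median 1.12), 6 of 9 *nspd* members (median 1.11) and 1 of 2 *sss* members. Among all genes tested 22.6% passed as higher, so the *msp* share (20.7%) was near that of all genes. By adjusted p alone 26 of the 29 *msp* members were higher, against 38.6% of all genes. Whether the families differ was not tested. The 6 *msp* members past both thresholds were *msp-74*, *msp-142* (1.35), *msp-38* (1.29), *msp-64* (1.17), *msp-3* (1.16) and *msp-45* (1.02). The *ssp* members past both thresholds were *ssp-16*, *ssp-9* (1.61), *ssp-32* (1.61), *ssp-19* (1.18), *ssp-31* (1.17), *ssp-37* (1.15), *ssp-36* (1.09) and *ssp-34* (1.04), all log2 fold changes. Of these, *ssp-9*, *ssp-32* and *ssp-36* had overlapping libraries and few counts. The *nspd* members were *nspd-10* (1.56), *nspd-7* (1.34), *nspd-1* (1.23), *nspd-6* (1.20), *nspd-4* (1.11) and *nspd-5* (1.03). By position, 6 of 6 members on chromosome I passed, 7 of 14 on chromosome II, 7 of 28 on chromosome IV, 1 of 3 on chromosome V and 0 of 1 on chromosome III. For all genes tested, 23.0% passed as higher on chromosome I, 25.0% on chromosome II, 21.9% on chromosome III, 24.9% on chromosome IV and 25.8% on chromosome V, so the share of members on chromosome IV was near that of all its genes.

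**Figure D3:**
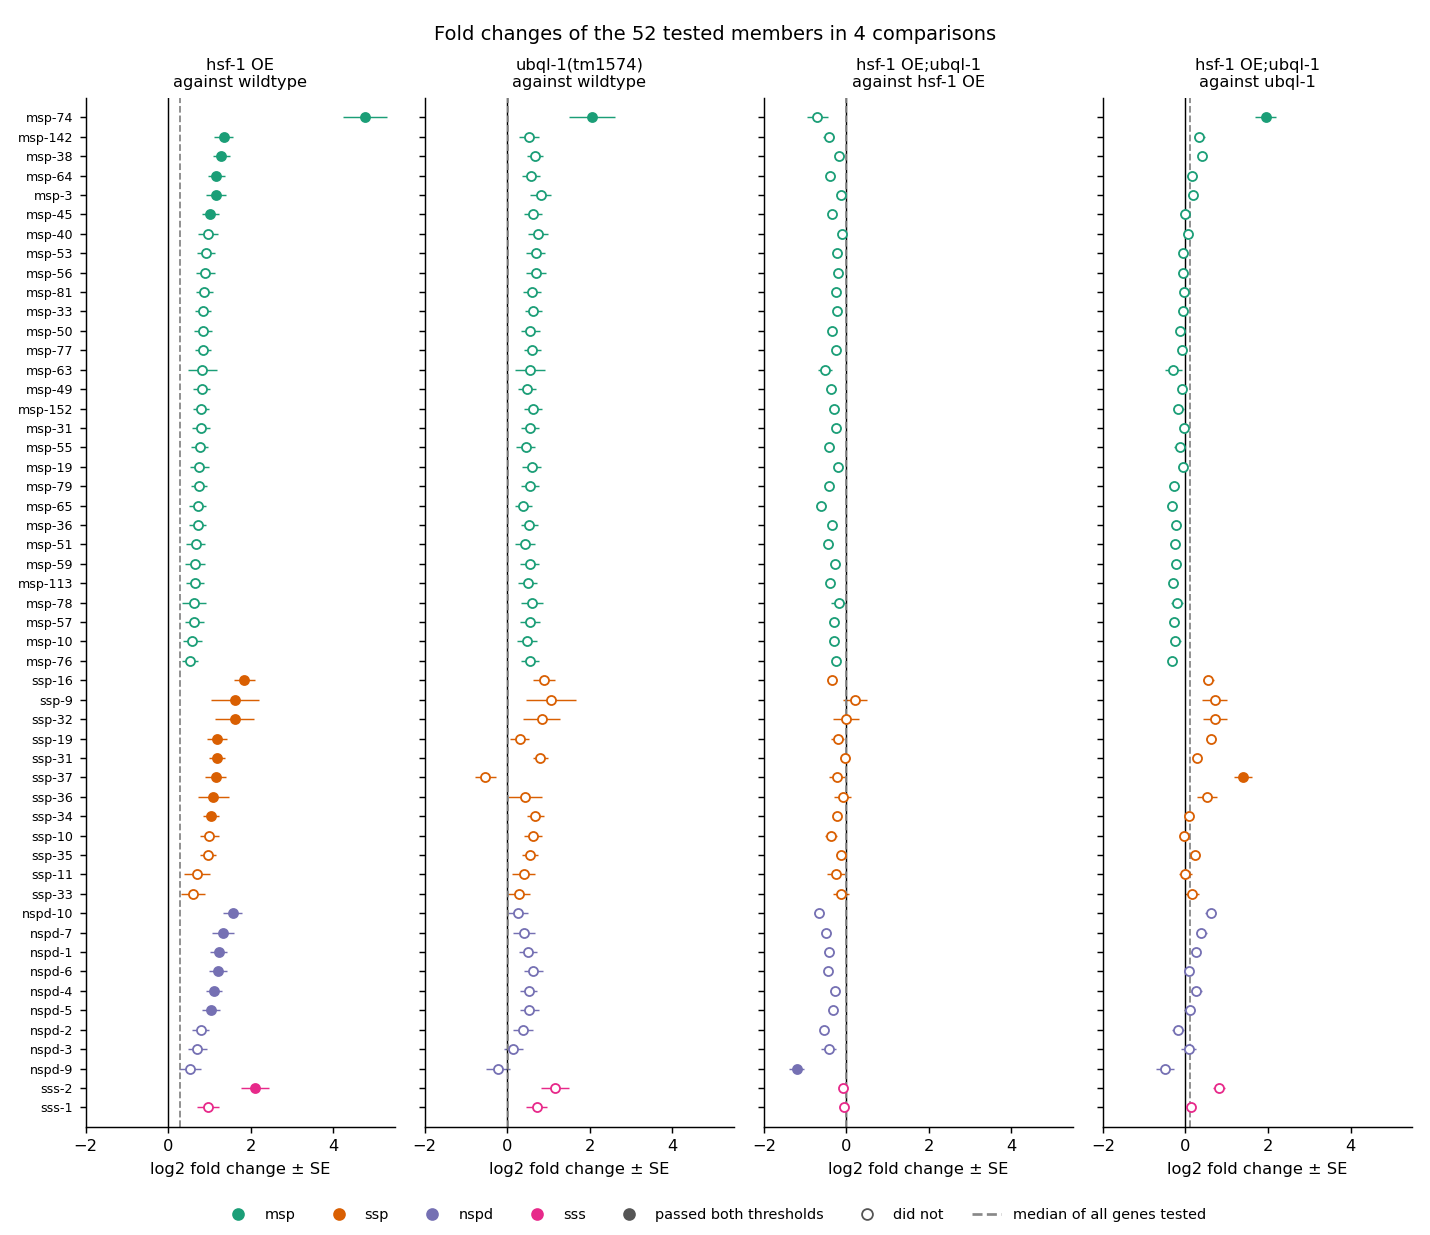
Log2 fold change ± SE (x axis) of the 52 tested members (y axis, grouped by family and ordered by the change in hsf-1 OE against wildtype) in 4 comparisons; ubql-1 stands for ubql-1(tm1574). Filled points passed both thresholds, and the dashed line is the median of all genes tested. All points lie right of 0 in hsf-1 OE against wildtype (median 0.91), and they scatter around 0 in hsf-1 OE;ubql-1(tm1574) against ubql-1(tm1574) (median -0.01).

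*msp-74* (F09C12.7, chromosome II, 5115102 to 5115335, minus strand), a short *msp* gene of 234 bases, changed most. Its normalised counts were 6.0, 0.0, 9.4 and 8.2 in wildtype, 19.1, 18.8, 37.3 and 24.2 in the mutant, 128, 123, 224 and 124 in *hsf-1* OE, and 77.05, 76.7, 107 and 111 in the cross. No library of 1 genotype fell within the range of another, and the order from low to high was wildtype, *ubql-1(tm1574)*, *hsf-1* OE;*ubql-1(tm1574)*, *hsf-1* OE. The wildtype values rest on 21 raw counts in 4 libraries. The log2 fold change in *hsf-1* OE against wildtype was 4.77 (SE 0.54, adjusted p = 0.000152 with edgeR), and it stayed between 4.36 and 5.01 with any of the 8 libraries left out. Per kilobase *msp-74* remained among the low members, at a mean of 292 normalised counts per kilobase.

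Pseudogenes of the family that the member rule leaves out gave similar values. Normalised counts of *msp-71* (F59A6.8, chromosome II, 5012874 to 5013275) were 33.7, 8.4, 51.0 and 63.9 in wildtype, 101, 94.2, 180 and 130 in the mutant, 461, 320.3, 516 and 522 in *hsf-1* OE, and 226, 255, 370 and 380 in the cross. Those of *msp-42* (F26G1.8, chromosome II, 4787159 to 4787520) ranged from 2.4 to 35.6 in wildtype, from 49.3 to 93.3 in the mutant, from 174 to 331 in *hsf-1* OE and from 142 to 233 in the cross. In *hsf-1* OE against wildtype the log2 fold change was 3.66 for *msp-71* (adjusted p = 0.000216) and 3.62 for *msp-42* (adjusted p = 0.000391), both with edgeR. All *hsf-1* OE libraries exceeded all wildtype libraries in both. These genes were singled out after their values were seen. *msp-52* and *msp-58*, also listed as pseudogenes in the tables, had log2 fold changes of 0.34 (adjusted p = 0.199) and 0.53 (adjusted p = 0.135).

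Of the members with more counts, *sss-2* (F47B8.11, chromosome V, 14346008 to 14346997), listed as protein-coding in the tables and as a pseudogene in RefSeq, changed most. Its normalised counts were 587, 259, 792 and 1051 in wildtype, 1185, 1232, 1899 and 1684 in the mutant, 3092, 2521, 2613 and 2308 in *hsf-1* OE, and 2294, 2480.4, 2647 and 2690.0 in the cross. Both genotypes with the transgene were above both without it. The log2 fold change in *hsf-1* OE against wildtype was 2.10 (SE 0.34, adjusted p = 0.000624 with edgeR). For *sss-1* (F32B6.5) the normalised counts were 1440.0, 797, 1864 and 2198 in wildtype, 2181, 2253, 2983 and 2889 in the mutant, 3522, 2563, 2779 and 2371 in *hsf-1* OE, and 2535, 2649, 2792 and 2878 in the cross. The last 3 genotypes overlapped for *sss-1*, and wildtype replicate 4 (2198) exceeded mutant replicate 1 (2181). The *sss-1* log2 fold change of 0.96 (SE 0.26, adjusted p = 0.00849 with edgeR) in *hsf-1* OE against wildtype did not pass the threshold on the fold change.

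Among the *ssp* genes, *ssp-16* (T27A3.3, chromosome I, 6102032 to 6102465) had 361, 186, 370.4 and 520.5 normalised counts in wildtype, 520.3, 595, 789.6 and 776 in the mutant, 1471, 976, 1241 and 1044 in *hsf-1* OE, and 904, 894, 956 and 1022 in the cross. As with *sss-2*, both genotypes with the transgene were above both without it. The log2 fold change in *hsf-1* OE against wildtype was 1.85 (SE 0.26, adjusted p = 0.00036 with edgeR). *ssp-10* (K07F5.9), the most abundant *ssp* gene, had 946, 675, 1143 and 1520.4 normalised counts in wildtype, 1309, 1438, 1957 and 1886 in the mutant, 2548, 1871, 2034 and 1391 in *hsf-1* OE, and 1499.7, 1710.4, 1377 and 1565 in the cross. Its genotypes overlapped, since wildtype replicate 4 exceeded *hsf-1* OE replicate 4. *ssp-34* (ZC168.6) had 499, 349.5, 671 and 702 in wildtype, 753, 789, 1015 and 989 in the mutant, 1156, 1026, 1090.2 and 885 in *hsf-1* OE, and 875, 859, 937 and 939 in the cross, all normalised counts. Wildtype was below the other 3 genotypes for *ssp-34*, and these overlapped.

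The most abundant *msp* genes had smaller differences. Normalised counts of *msp-31* (R05F9.13, chromosome II, 4916179 to 4916562) were 4059, 2363, 4684 and 5345 in wildtype, 5070.4, 5683, 7345 and 5791 in the mutant, 8314, 6086, 6540.3 and 5103 in *hsf-1* OE, and 5329.7, 5635, 5743 and 5549 in the cross. Those of *msp-40* (C33F10.9) were 2852, 1670.0, 3618 and 4105 in wildtype, 4094, 4776, 6204 and 5521 in the mutant, 6572, 4966, 5683 and 4586 in *hsf-1* OE, and 4883, 4939.5, 5518 and 5163 in the cross. Those of *msp-57* (R13H9.2) were 2870.3, 1972, 3833 and 4648 in wildtype, 3866, 4375, 5918 and 5292 in the mutant, 6011, 4292, 4836 and 3721 in *hsf-1* OE, and 3809, 3685, 4098 and 3813 in the cross. For *msp-31* and *msp-57* wildtype replicate 4 lay within the *hsf-1* OE range, whereas for *msp-40* all *hsf-1* OE libraries were above wildtype. The log2 fold changes in *hsf-1* OE against wildtype were 0.79 (*msp-31*), 0.96 (*msp-40*) and 0.63 (*msp-57*), with adjusted p = 0.0105, 0.00513 and 0.0345 with edgeR, and none passed the threshold on the fold change.

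The most abundant *nspd* genes were *nspd-1*, *nspd-7* and *nspd-2*. *nspd-1* (ZK484.8) had 939.9, 664, 1170.3 and 1452 normalised counts in wildtype, 1242, 1305, 1806 and 1676 in the mutant, 2617, 1994, 2549 and 1865 in *hsf-1* OE, and 1812, 1531, 1715 and 1797 in the cross. *nspd-7* (Y43C5A.1) had 728, 413, 863 and 1153 in wildtype, 787, 958, 1297 and 1159.5 in the mutant, 2244, 1522, 2010.0 and 1514 in *hsf-1* OE, and 1418, 1171, 1261 and 1419 in the cross. *nspd-2* (K07F5.5) had 1203, 668, 1178 and 1572 in wildtype, 1139, 1279, 1893 and 1727 in the mutant, 1958, 1606, 1873 and 1812 in *hsf-1* OE, and 1400.3, 1174, 1190.1 and 1332 in the cross. For all 3 genes the *hsf-1* OE libraries were above the wildtype libraries and above those of the cross. In *hsf-1* OE against wildtype *nspd-1* and *nspd-7* passed both thresholds, and *nspd-2* had a log2 fold change of 0.79 (adjusted p = 0.00882 with edgeR).

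Exact permutation tests of these single members over 4 against 4 libraries, two-sided on log2(normalised count + 1), cannot go below p = 0.0286. In *hsf-1* OE against wildtype, *msp-74*, *sss-2*, *sss-1*, *ssp-16*, *ssp-34*, *ssp-37*, *msp-40*, *nspd-1*, *nspd-2* and *nspd-7* were at this smallest value in the exact test. That value means only that their *hsf-1* OE libraries were all above the wildtype libraries, as for 28.5% of all genes. *msp-74*, *sss-2* and *ssp-16* were named for their rise in this comparison, so their exact tests add no support. *msp-31* and *ssp-10* had exact p = 0.0571, *msp-57* exact p = 0.143 and *nspd-9* exact p = 0.171.

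**Figure D4:**
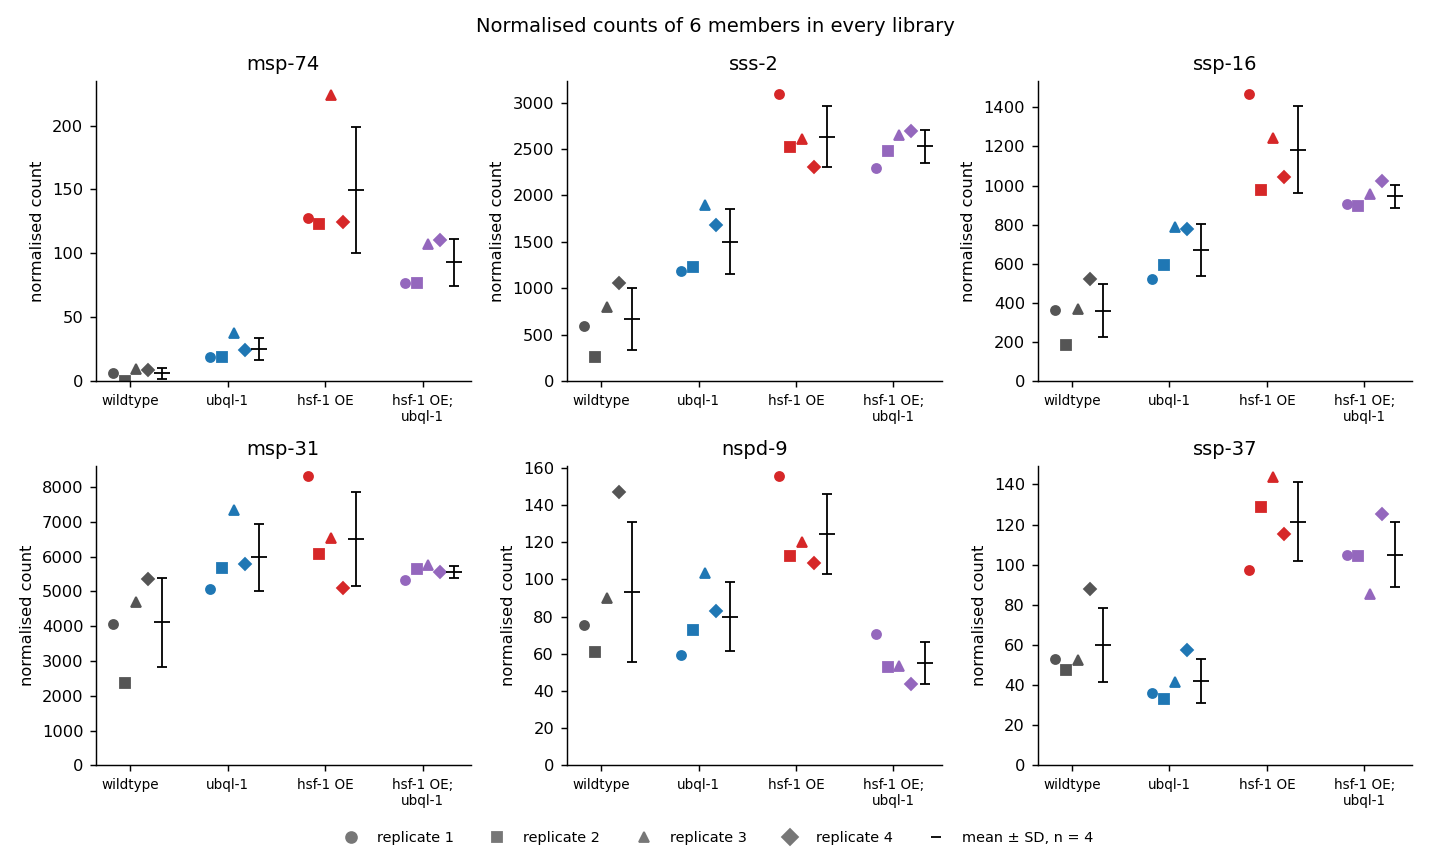
Normalised counts (y axis) of 6 members in every library, by genotype (x axis; ubql-1 stands for ubql-1(tm1574)). Marker shapes give the replicate number and black bars the mean ± SD (n = 4). msp-74 is below 10 in wildtype and above 120 in hsf-1 OE, msp-31 overlaps between genotypes, nspd-9 is lowest in hsf-1 OE;ubql-1(tm1574), and ssp-37 is high in both genotypes with the transgene.

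In *ubql-1(tm1574)* against wildtype, the members were higher by a median log2 fold change of 0.55 (range -0.53 to 2.06), against 0.03 for all genes tested, and 50 of 52 were above 0. Only *msp-74* passed both thresholds (log2 fold change 2.06, SE 0.55, adjusted p = 0.049 with edgeR), where 2.31% of all genes passed as higher. This call was kept in 2 of the 8 fits that left out 1 library. By adjusted p alone 2 members passed, *msp-74* and *ssp-31* (log2 fold change 0.80, adjusted p = 0.0362), against 4.19% of all genes. With the replicate number as a block, *msp-74* and *sss-2* (1.26, adjusted p = 0.00908) passed both thresholds, where 5.32% of all genes did so as higher, and 39 passed by adjusted p alone, where 16.1% did. DESeq2 without the block gave 21 by adjusted p alone, where 9.42% of all genes passed as higher. The 2 members with a log2 fold change below 0 were *ssp-37* (-0.53, adjusted p = 0.188) and *nspd-9* (-0.23, adjusted p = 0.605).

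In *hsf-1* OE;*ubql-1(tm1574)* against *hsf-1* OE, 51 of 52 members had a log2 fold change below 0, with a median of -0.29 (range -1.20 to 0.20) against -0.01 for all genes tested. *nspd-9* was the only member past both thresholds, where 0.302% of all genes passed as lower. Normalised counts of *nspd-9* (F26A1.10, chromosome III, 4830010 to 4830346) were 75.7, 60.8, 89.9 and 147 in wildtype, 59.4, 73.0, 103 and 83.2 in the mutant, 156, 112, 120.1 and 109 in *hsf-1* OE, and 70.3, 52.6, 53.3 and 43.6 in the cross. All 4 *hsf-1* OE libraries were above all 4 *hsf-1* OE;*ubql-1(tm1574)* libraries, while wildtype overlapped both. The log2 fold change was -1.20 (SE 0.18, adjusted p = 0.0162 with edgeR), and it passed in 3 of the 8 fits that left out 1 library, with values between -1.31 and -1.12. By adjusted p alone 4 members fell (*nspd-9*, *nspd-2*, *nspd-10* and *msp-65*, *msp-65* at -0.61 with adjusted p = 0.0486), against 0.463% of all genes. With the replicate block 12 members fell by adjusted p alone, against 2.99% of all genes.

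In *hsf-1* OE;*ubql-1(tm1574)* against *ubql-1(tm1574)*, which addresses the transgene in the mutant background, the member median was -0.01 (range -0.49 to 1.94), against 0.11 for all genes tested. 2 members, *msp-74* and *ssp-37*, passed both thresholds as higher, where 12.8% of all genes did so. *msp-74* had a log2 fold change of 1.94 (SE 0.26, adjusted p = 0.00031 with edgeR). *ssp-37* (W02D9.5, chromosome I, 12561040 to 12561560) had 52.9, 47.7, 52.3 and 87.7 normalised counts in wildtype, 35.9, 33.0, 41.6 and 57.7 in the mutant, 97.5, 129, 144 and 115.4 in *hsf-1* OE, and 105, 104, 85.5 and 125 in the cross. The *hsf-1* OE;*ubql-1(tm1574)* libraries were all above those of *ubql-1(tm1574)*, and those of *hsf-1* OE were above those of wildtype. The log2 fold change was 1.39 (SE 0.21, adjusted p = 0.000652) in the mutant background and 1.15 (SE 0.25, adjusted p = 0.003) in the wildtype background, both with edgeR. The rises of *msp-74* and *ssp-37* in the mutant background passed in all 8 fits that left out 1 library.

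By adjusted p alone, 11 members rose in the mutant background, against 31.5% of all genes, and 3 fell, against 27.7%. With the replicate block 15 rose, against 35.6% of all genes, and 7 fell, against 30.8%. This split depends on the scaling, since it was 8 higher and 8 lower with RLE factors and 20 higher and 0 lower with the housekeeping genes. Relative to the median of all genes tested, the member median was -0.12 with TMM, -0.12 with RLE and -0.13 with the housekeeping genes. The families lay on different sides of 0 under TMM. The median log2 fold change was -0.09 for *msp*, 0.40 for *ssp* and 0.11 for *nspd* genes, and on the housekeeping scale the member median turned positive, at 0.27. *ssp-16* (0.55, adjusted p = 0.00438) and *sss-2* (0.81, adjusted p = 0.0011) rose by adjusted p alone, and *msp-76* (-0.32, adjusted p = 0.024), *msp-113* (-0.30, adjusted p = 0.0329) and *msp-65* (-0.34, adjusted p = 0.0284) fell by adjusted p alone under TMM.

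The difference between the effect of the transgene in the mutant and in the wildtype background was tested as an interaction over all 16 libraries. It was negative for 51 of 52 members, with a median of -0.84 on the log2 scale (range -2.74 to 0.33), against -0.04 for all genes tested. *msp-74* alone passed both thresholds (-2.74, SE 0.58, adjusted p = 0.0392 with edgeR), where 0.409% of all genes passed as lower. With the replicate block 4 members passed both thresholds (*msp-74*, *sss-2* at -1.28, *ssp-16* at -1.25 and *nspd-6* at -1.08), where 4.97% of all genes passed as lower, and 29 were lower by adjusted p alone, where 7.21% of all genes were. The number past both thresholds ranged from 0 to 26 when 1 library was left out, and 26 was reached without wildtype replicate 4, where 3.86% of all genes passed as lower. Wildtype replicate 4 was the wildtype library with the highest member levels. The member median stayed between -1.02 and -0.67 over these fits. The only member with a positive interaction was *ssp-37* (0.33, SE 0.32, adjusted p = 0.594).

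Other genes of sperm biology were read from lists. Of 37 *spe* genes and sperm phosphatases (*spe-* genes, *fer-1*, *gsp-3* and *gsp-4*, which act in sperm formation and activation), 31 passed as higher and 0 as lower in *hsf-1* OE against wildtype, with a median log2 fold change of 1.68. The most abundant were *gsp-3* (1.65), *spe-15* (1.25), *spe-18* (2.15) and *gsp-4* (1.20). Of 6 sperm chromatin and spindle genes 5 passed as higher (median 1.53), the sperm chromatin genes *spch-1* (1.92), *spch-2* (1.60) and *spch-3* (1.58) as well as *smz-1* (1.48) and *smz-2* (1.14). Of the 4 MSP-domain *msd* genes 0 passed both thresholds (median 0.62), and 2 passed by adjusted p alone. Another 62 genes carried the Motile_Sperm annotation (a list added after the files were seen, which includes the *msd* genes and *spe-47*), of which 55 were tested, 31 passed as higher, 1 passed as lower (Y105C5B.19, -1.40), and the median was 1.21. The annotation names a domain family, so these genes need not all act in sperm. In this list 6 genes had a log2 fold change below 0. Its most abundant gene, *vpr-1*, had a mean of 5351 normalised counts in wildtype and 3766 in *hsf-1* OE. Among 11 regulators of sperm fate (median -0.47) 9 had a log2 fold change below 0. By adjusted p alone 1 was higher and 7 were lower, where 4249 of all 14794 genes were lower. Past both thresholds 1 was higher and 1 was lower, where 22.6% and 3.60% of all genes were. The higher one was *fog-3* (2.55, SE 0.27, adjusted p = 0.000121 with edgeR), which is required for germ cells to become sperm, and the lower one was *fem-3* (-1.25), a gene of the sex determination pathway that promotes sperm fate. *fog-3* also passed both thresholds as higher in *ubql-1(tm1574)* against wildtype (1.30, adjusted p = 0.0356) and in the mutant background with the transgene (1.14, adjusted p = 0.000931), both with edgeR. The most abundant of these, *gld-1*, which encodes an RNA-binding protein of the hermaphrodite germline, fell by 0.81 (adjusted p = 0.00037 with edgeR) without passing the threshold on the fold change.

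In the mutant background the same lists had median log2 fold changes of 0.71 for *spe* genes and sperm phosphatases (12 of 37 past both thresholds as higher), 0.54 for chromatin and spindle genes (0 of 6 past both, 4 by adjusted p alone) and -0.28 for *msd* genes (0 of 4). The shares of all genes were 12.8% past both thresholds as higher and 31.5% higher by adjusted p alone. For the interaction the medians of these lists were -0.93, -0.87 and -0.77, and 0 of these 47 genes passed both thresholds with edgeR, 34 had an unadjusted p under 0.05, 9 passed with DESeq2 and 13 with the replicate block. Of all 15645 genes tested, 86 passed both thresholds with edgeR and 3035 had an unadjusted p under 0.05. With DESeq2 540 genes passed both thresholds and with the replicate block 853. In *ubql-1(tm1574)* against wildtype the list medians were 0.75, 0.83 and 0.60, and 3 of 37, 0 of 6 and 0 of 4 passed both thresholds with edgeR (28, 5 and 2 had an unadjusted p under 0.05). Among all 14183 genes tested 2.31% passed both thresholds as higher, and 4690 had an unadjusted p under 0.05. DESeq2 called 0 of 6 and 0 of 4 in the latter lists, and its count for the *spe* list is not given here. The *hsf-1* OE and *ubql-1(tm1574)* comparisons share the wildtype libraries.

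Markers of other cell types moved alongside the members. Summed normalised counts of 14 oocyte and eggshell genes ran from 252021 to 348899 in wildtype, 232856 to 267220 in the mutant, 96207 to 176397 in *hsf-1* OE and 126194 to 183975 in the cross. In *hsf-1* OE against wildtype 10 of these 14 passed as lower and 0 as higher (median -1.16), where 3.60% of all genes passed as lower. Of 12 larval moult and cuticle genes 10 passed as higher (median 4.91), where 22.6% of all genes did, although their summed counts, which the adult collagen *col-19* leads, ran only from 46298 to 54488 in wildtype and from 59252 to 70643 in *hsf-1* OE. Single genes of this list spread widely within *hsf-1* OE, such as *dpy-13* with 345.5 normalised counts in replicate 1 and 8576.5 in replicate 4. In *ubql-1(tm1574)* against wildtype 8 of the 12 moult and cuticle genes passed as higher (median 2.37), where 2.31% of all genes did. In the cross against *ubql-1(tm1574)* 10 of 12 passed as higher (median 1.99), where 12.8% of all genes did. The medians of the moult and cuticle genes were -0.40 in the cross against *hsf-1* OE and -2.74 for the interaction. The medians of the oocyte and eggshell genes were -0.25 in *ubql-1(tm1574)* against wildtype, -0.67 in the cross against *ubql-1(tm1574)*, where 13 of 14 were lower by adjusted p alone, 0.33 in the cross against *hsf-1* OE and 0.61 for the interaction. The part of oocyte content or developmental stage in the member differences was not tested. Within wildtype, replicate 2 had the highest oocyte sum and the lowest *msp* sum, and replicate 4 the lowest oocyte sum and the highest *msp* sum. Replicate 2 was also the lowest wildtype library for the *spe* list (7773, against 10231 to 13992 in the others). This inverse order did not hold in every genotype. In *hsf-1* OE, replicate 1 had both the highest oocyte sum (176397) and the highest *msp* sum (108098). In the mutant, replicate 3 had the lowest oocyte sum and the highest *msp* sum. In the cross, replicate 1 had the highest oocyte sum and the lowest *msp* sum.

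For 9 genes of male-specific neurons and seminal fluid, summed normalised counts ran from 28.6 to 67.1 in wildtype and from 78.8 to 103 in *hsf-1* OE. The most abundant of these, *mab-3*, ran from 9.5 to 25.2 in wildtype and from 36.9 to 59.7 in *hsf-1* OE. The next most abundant, *try-5*, *cwp-4* and *cwp-5*, overlapped between these 2 genotypes. Only 2 of the 9 passed the filter on low counts and 1, *mab-3*, passed both thresholds as higher (1.51). Of 8 early embryo genes 3 were tested, with 2 higher (*end-3*, 2.39, and *ceh-27*, 1.28) and 1 lower (*pes-1*, -1.31), at summed normalised counts of 53.7 to 72.1 in wildtype. None of 5 spermatheca and gonad sheath genes passed both thresholds (median 0.61), and all 5 were higher by adjusted p alone. For comparison, 22.6% of all genes passed both thresholds as higher and 3.60% as lower in *hsf-1* OE against wildtype. By adjusted p alone 38.6% of all genes were higher, and the median of all genes was 0.28. The part of these lists in the member differences was not tested.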

How the data were processed

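The deposited tables hold raw counts of reads per gene, which the authors obtained from poly-A selected RNA with HISAT2 2.0.5 on WBcel235 and featureCounts 1.5.0-p3, per the labels. The deposited gene length (bases) served only for levels per kilobase. The authors' own fold changes, p-values, group means and 48 further per-library columns were left aside. The 3 tables were joined on gene ID, and 17372 cells that a table does not list were set to 0. Symbols came from RefSeq's WBcel235 genes (23180 of 23758 IDs matched). Of 62 genes with these symbols, 6 genes that the tables do not list as protein-coding (one of them, *msp-58*, is protein-coding in RefSeq) and R74.10, which Ensembl names otherwise, were left out, and 2 were not analysed here. T28H11.6 (*ssp-11*) is *ssp-9* in Ensembl.

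Tests used edgeR 4.0.16 (limma 3.58.1, R 4.3.3; TMM, filterByExpr, quasi-likelihood F test, two-sided) on the 8 libraries of a comparison, or 16 for the interaction, with Benjamini-Hochberg adjustment over all genes, and were tested on simulated data. Tables used Python 3.11.15, pandas 2.3.3 and scipy 1.17.1. Members given with every value were the 3 with most counts per family and, per comparison, up to 3 rises and 3 falls past both thresholds with a mean of at least 10 normalised counts. Members and lists were chosen with earlier results of these data known. Replicates are separate samples, per the labels, and the paper calls them biological replicates. Whether they came from separate cultures is not said, so p-values measure the spread between these samples. Same-number libraries deviated together (lowest correlation 0.106, 0.172, 0.392 and 0.137 in the 4 comparisons of 2 genotypes, limit 0.1), so replicate number also served as a block. Pairs of different numbers reached 0.285, 0.288, 0.385 and 0.248, and the labels do not say what a replicate number shares. The main tests and the exact permutation tests did not use this pairing. Alternatives were DESeq2 1.42.0, RLE, housekeeping scaling, no filter, no fold threshold, the replicate block, a fit of 16 libraries, leaving out each library, and, added after the data were seen, all listed family genes.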

Additional observations from a re-analysis of the deposited data

Results flagged for a closer look

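Of 72 sets of 4 libraries examined (14 members and 4 family sums in each genotype), 2 held a library far from the other 3, and chance alone would give about 1 in 20. *msp-74* had 224 normalised counts in *hsf-1* OE replicate 3, against 123 to 128 in the other 3 libraries of the genotype. *ssp-37* had 87.7 normalised counts in wildtype replicate 4, against 47.7 to 52.9 in the other wildtype libraries. The effect of the transgene on *msp-74* differed between the backgrounds by the interaction test (-2.74 on the log2 scale, adjusted p = 0.0392 with edgeR).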

How the results depend on the processing

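For *hsf-1* OE against wildtype, the 21 members past both thresholds became 46 with housekeeping scaling and 46 with no fold threshold, between 11 and 30 with 1 library left out, and 15 to 25 otherwise. All were higher. The scaling also moved the share of all called genes that were higher from 86.3% to 94.7% (housekeeping) and 76.3% (RLE). For *ubql-1(tm1574)* against wildtype, the 1 member became 2 with DESeq2, the replicate block, the fit of 16 libraries or no fold threshold, 0 with housekeeping scaling or no filter, and 0 to 3 with 1 library left out. For *hsf-1* OE;*ubql-1(tm1574)* against *hsf-1* OE, the 1 member became 4 with no fold threshold and 0 to 1 with 1 library left out. For *hsf-1* OE;*ubql-1(tm1574)* against *ubql-1(tm1574)*, the 2 members became 4 with housekeeping scaling, 14 with no fold threshold and 5 with all listed family genes, and stayed 2 with any library left out. For the interaction, the 1 member became 3 with DESeq2, 4 with the replicate block and 0 to 26 with 1 library left out. Changes other than those made by removing libraries or a threshold have a cause that was not tested. Of 1078 alternative values of the fold change of single members, 36 lost and 34 gained a call, 6 in members not called changed direction by over 1 SE, and 1002 did neither. Beyond the values given with the comparisons, the replicate block moved no count of members called by over 1.5 times. Over all genes, the block and DESeq2 moved the calls past both thresholds from 342 to 779 and 558 (*ubql-1(tm1574)* against wildtype), from 95 to 179 and 169 (the cross against *hsf-1* OE) and from 86 to 853 and 540 (interaction). Depth limited *msp-32* (at most 5 counts per library) and the wildtype level of *msp-74*.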
